A study of Mus musculus with 16 samples.

Results

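Thy cells are one of the skeletal subsets sorted from mouse femurs by flow cytometry, named for the surface marker in their label. They gave 2 of the 16 libraries, Thy replicate 1 and Thy replicate 2. Each was compared with the 6 other skeletal libraries of the same replicate number, 12 in all, which were sorted as 6C3, Thy_6C3, CD105, CD24, CD24_CD29 and CD29. The 2 libraries of CD45 cells, a marker of blood-lineage cells, were left out of the comparison. All cells came from 3-month-old PolG D257A/D257A mice, so the comparison libraries carry the same polymerase change as the Thy libraries and no group has a normal polymerase. The labels name no gates and do not say how many mice gave a library or whether bones were pooled. The p-values therefore speak only of how these libraries vary, and that variation may be technical. The Thy label was not checked against Thy1, because no row of the tables used here covers that gene.

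PolG replicates mitochondrial DNA. With the D257A change it no longer proofreads, and point mutations build up in the mitochondrial genomes of such mice. Each cell holds many copies of this genome, so a mutation is read as a fraction of the bases at its position, and cells that descend from a common ancestor can carry the same mutation at a like fraction. Transitions exchange A with G or C with T and are the usual errors of mitochondrial DNA replication. A>C and T>G are the same change read from opposite strands, and they were kept apart because earlier results of these data had shown them raised along the whole genome in Thy replicate 2. In an allele name the reference base comes first, then the position on the GRCm38 mitochondrial chromosome (from 1), then the base read instead. Its fraction is its count over the coverage at that position. In bulk libraries such as these, a few cells with a high fraction and many cells with a low one cannot be told apart.

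The sites below carry the differences described later, and the reference strand of GRCm38 is printed 5′ to 3′ with the changed bases in capitals. The TrnC and TrnY pairs are neighbouring bases that were above all other skeletal libraries in both Thy libraries, and the ND4L and COX1 bases are further sites at which both Thy libraries were above the others. C6918T, C13653T, C15266T and C8062T are transitions high in a single Thy library, and G11217A, C14149T and T8331C lay outside the range of the other subsets in both replicate numbers.
TrnC chrMT:5192-5212: aagtcttagTAgagatttctc
TrnY chrMT:5267-5288: aagaggatttAAacctctgtgt
ND4L chrMT:10146-10166: ccaaaatctcAacctactaca
COX1 chrMT:6286-6306: tatttagctgActtgcaaccc
C6918T chrMT:6908-6928: aagccaatctCatatcctata
C13653T chrMT:13643-13663: gccgctacccCaatccctcct
C15266T chrMT:15256-15276: ttatcgaagaCaaaatactaa
C8062T chrMT:8052-8072: ccattctttcCaacactgact
G11217A chrMT:11207-11227: acttcaaatgGtcttcccact
C14149T chrMT:14139-14159: cacctaatgaCaaacatacga
T8331C chrMT:8321-8341: gaactccaatTtcactaattc

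Mean coverage was 28920 counts per position in Thy replicate 1 and 19598 in Thy replicate 2, each rank 4 of 7 in its number, and the 12 comparison libraries ran from 6569 to 77252. The difference in coverage from the others, 0.07 on the log2 scale, did not pass (exact permutation p = 0.878, two-sided, adjusted p = 0.878). A count of 0 at mean coverage allows a fraction of up to 0.0104% in Thy replicate 1 and 0.0153% in Thy replicate 2. Such limits, and the exact (Clopper-Pearson) 95% intervals given below for single libraries, cover counting error only, since the reads carry no molecular identifiers.

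The 2 Thy libraries did not share a direction of difference in summed transition load, while A>C and T>G were raised in replicate 2. The transition load, which is the summed transition fraction averaged over positions, was 0.127% in Thy replicate 1. That was the lowest of the 7 libraries of replicate 1, where the others ran from 0.130% to 0.208% with a median of 0.130%. In Thy replicate 2 it was 0.156%, rank 3 of 7, against 0.129% to 0.181% with a median of 0.131%. Relative to the mean of the others, Thy was 0.19 lower on the log2 scale in replicate 1 (a difference of -0.19) and 0.11 higher in replicate 2. The mean difference of -0.04 did not pass an exact permutation test over the 49 choices of 1 library per number (p = 0.837, two-sided; adjusted p = 0.878 over 6 measures). It turned positive, to 0.11, without Thy replicate 1 and to 0.01 without 6C3 replicate 1, whose transition load was the highest of its number.

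The A>C and T>G load was 0.0656% in Thy replicate 1 and 0.456% in Thy replicate 2. The other libraries had 0.0581% to 0.0654% in replicate 1 (median 0.0593%) and 0.0528% to 0.0841% in replicate 2 (median 0.0572%). Thy replicate 1 thus lay just above the highest other library, CD105 at 0.0654%, and Thy replicate 2 at 7.29 times the mean of the others. The mean log2 difference was 1.50, made up of 0.12 in replicate 1 and 2.89 in replicate 2. Its exact permutation p was 0.0204, the smallest the design allows, and the adjusted p of 0.122 did not pass. Because this class was set apart for its level in Thy replicate 2, the test is no independent evidence. For the remaining changes, Thy replicate 1 had 0.264%, within the 0.216% to 0.278% of the others, and Thy replicate 2 had 0.502%, against 0.203% to 0.267%. The mean log2 difference of 0.63 had an exact permutation p of 0.0612, two-sided, and an adjusted p of 0.184.

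**Figure D1:**
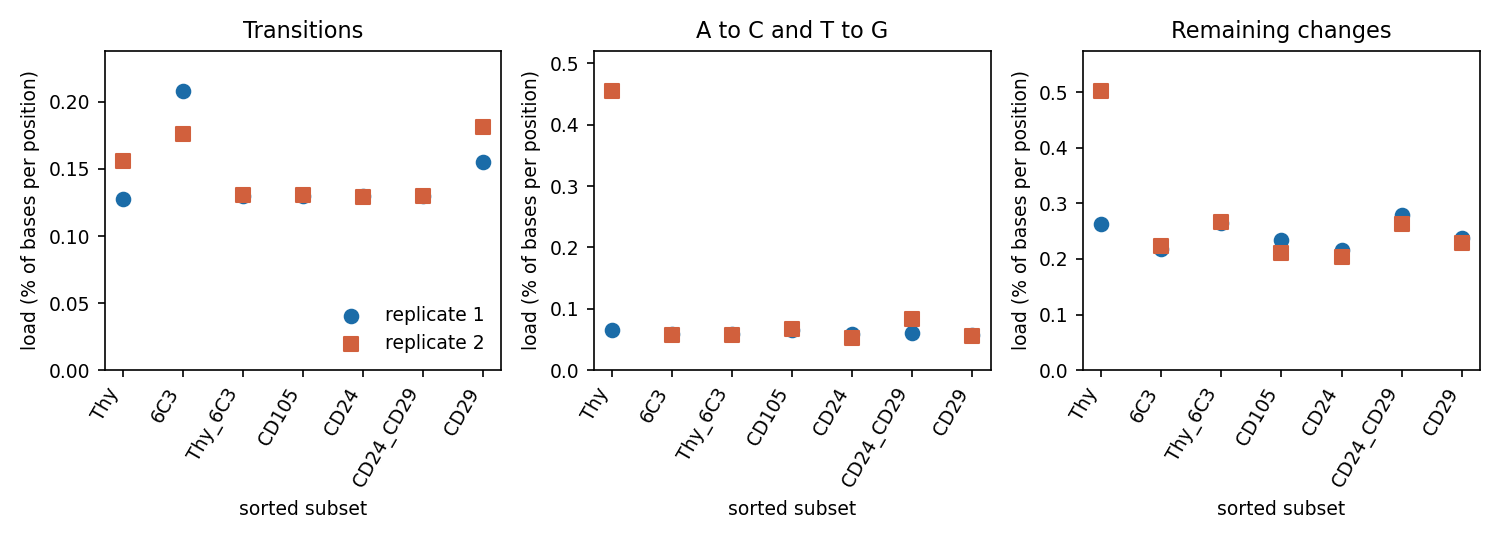
Load of transitions, of A to C and T to G, and of the remaining changes (% of bases per position, each axis starting at 0) in the 14 skeletal libraries, by sorted subset; circles are replicate 1 and squares replicate 2. Thy replicate 2 stands at 0.456% in the middle panel and 0.502% in the right panel, while both Thy libraries lie among or just below the others in the left panel.

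All 8 kinds of transversion were highest of 7 in Thy replicate 2, by different amounts. A>C had a mean fraction of 76.5 per 10000 bases there, 7.40 times the mean of the other 6 libraries (10.4 ± 2.01, SD, n = 6), and T>G had 66.5, 7.16 times the mean of 9.30 ± 1.63. G>C was 3.61 times as high, T>A 2.55, C>G 2.53, A>T 2.07, G>T 1.95 and C>A 1.90 times. The ratios of the 4 transitions were far smaller, at 1.13 for G>A, 1.12 for C>T, 1.06 for T>C and 1.02 for A>G. In Thy replicate 1 no kind of change exceeded the others by more than 1.13 times (A>T). A>G and T>C were low there, at 0.784 and 0.771 times the mean, where 6C3 replicate 1 held the highest values of both. C>T and A>C were the kinds that were highest of 7 in both Thy libraries. C>T stood at 13.6 and 14.1 per 10000, against up to 13.5 and 13.8 elsewhere.

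**Figure D2:**
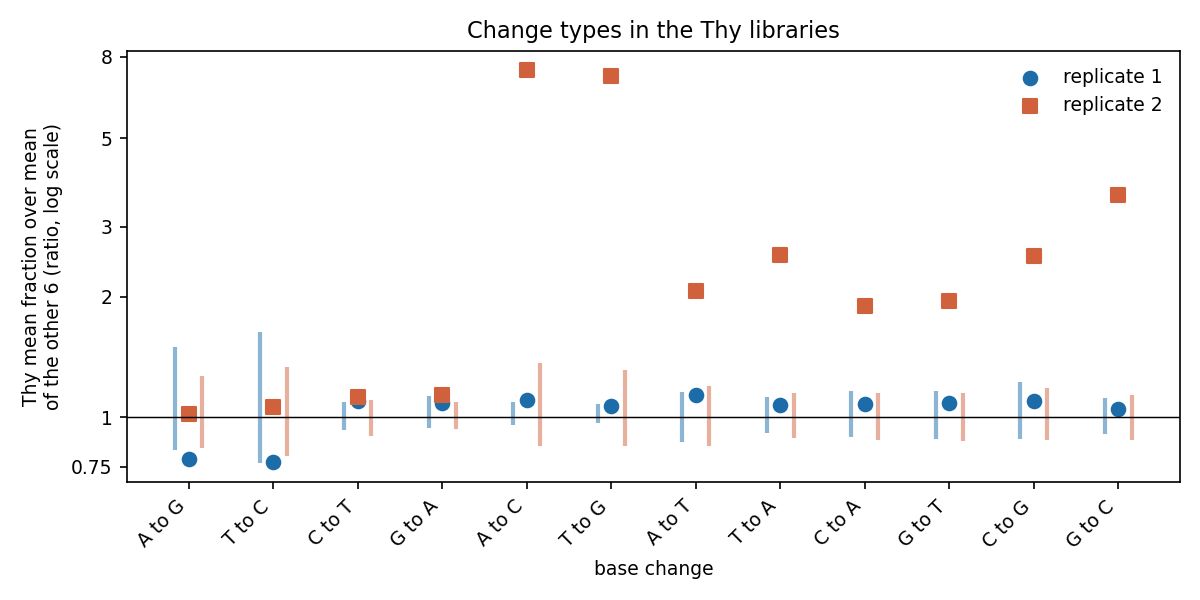
Mean fraction of each base change in the Thy library over the mean of the remaining 6 libraries of that replicate number (ratio, log scale), as circles for replicate 1 and squares for replicate 2; the vertical bars beside them span the lowest to the highest of the other 6 libraries. The squares of A to C and T to G stand at 7.40 and 7.16. The 4 transitions lie between 0.771 (T to C, replicate 1) and 1.13 (G to A, replicate 2).

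The A>C and T>G excess of Thy replicate 2 was spread over nearly the whole genome. Over the 10310 A and T positions, the median fraction of these changes was 0.635% in Thy replicate 2 and 0.0569% to 0.0963% in the other 6 libraries of its number. It was 0.0753% in Thy replicate 1 and 0.0649% to 0.0749% in the others of replicate 1. A fraction of 0.5% or more was reached at 65.0% of the positions in Thy replicate 2, against 2.05% in CD24_CD29 replicate 2, the next highest, and 1.04% in Thy replicate 1. Across 20 equal stretches of the genome the mean in Thy replicate 2 ran from 63.7 to 79.1 per 10000. By gene group, the ratio to the others ran from 6.09 in the control region, where heavy-strand replication starts, to 7.97 in the complex III gene CYTB. It was 7.49 in complex I genes, 7.55 in complex IV genes, 6.81 in ATP synthase genes, 6.86 in ribosomal RNA genes and 7.43 in transfer RNA genes.

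The level of these changes differed with the base before the A, while the ratio to the other libraries differed little by that base alone. With both strands written as A>C, the mean fraction in Thy replicate 2 was 89.7 per 10000 after an A, 72.6 after a T, 71.1 after a C and 38.6 after a G. The other libraries had the same order at a lower level, with 12.2, 9.81, 10.3 and 5.12 in replicate 2, apart from C and T, which changed places. The ratio of Thy replicate 2 to the others was 7.34, 7.40, 6.91 and 7.55. Across A and T positions, fractions in Thy replicate 2 correlated with the mean of the other libraries at r = 0.742, a description over positions of the same libraries. The share of reads that carry several such changes cannot be read from counts per position and was not analysed here.

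**Figure D3:**
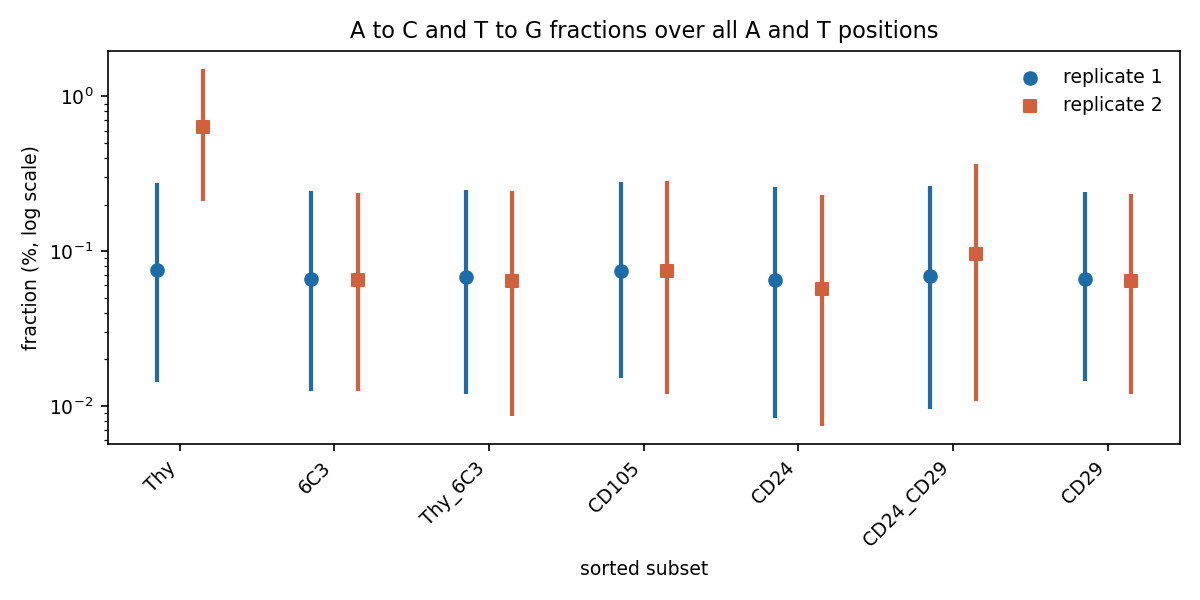
Fraction of A to C and T to G changes (%, log scale) over the 10310 A and T positions in each skeletal library; points are medians and bars run from percentile 5 to percentile 95, blue circles for replicate 1 and red squares for replicate 2. The median of Thy replicate 2 is 0.635%, and the other 13 medians lie between 0.0569% and 0.0963%.

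Transitions at 1% or more, with at least 5 counts, numbered 82 in Thy replicate 1 and 96 in Thy replicate 2, each rank 4 of 7. The other libraries held 54 to 196 (median 81) and 70 to 271 (median 108). The mean difference of -24.67 did not pass (exact permutation p = 0.714, two-sided, adjusted p = 0.878). With every library thinned to the same coverage, the Thy libraries held 85 and 97. Counted the same way, A>C and T>G changes numbered 19 in Thy replicate 1, within the 13 to 20 of the others, and 2178 in Thy replicate 2, against 15 to 36.

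Among the gene groups and kinds of change, the Thy transitions held the smallest complex IV share and the largest stop-gain share in both numbers. Both rest on few counts and are given as values with no test. C>T made up 34 of 82 and 38 of 96, and T>C 27 and 29. Complex I genes, which encode subunits of the NADH dehydrogenase, held 39 of 82 (47.6%, exact 95% interval 36.4 to 58.9) and 51 of 96 (53.1%, 42.7 to 63.4). In the other libraries their share was 40.6% to 52.4% and 40.2% to 48.6%, and 38.9% of all possible transitions lie in these genes. Complex IV genes, which encode cytochrome c oxidase, held 9 and 9, a share of 10.98% and 9.38% against 11.1% to 16.8% and 12.1% to 20.8% elsewhere. The exact 95% intervals were 5.14 to 19.8 and 4.38 to 17.05. They covered all the other libraries of replicate 1 and the median of the others in replicate 2 (16.3%). Of all possible transitions, 18.5% lie in these genes, more than the share in any library of replicate 1. Transfer RNA genes held 13 and 9 (15.9% and 9.38%, others 6.35% to 13.95% and 6.29% to 11.4%), and ribosomal RNA genes 7 and 16 (8.54% and 16.7%, others 9.52% to 17.8% and 13.3% to 19.9%). Thy was thus above all others in complex I genes in replicate 2 alone, and in replicate 1 alone above all in transfer RNA genes and below all in ribosomal RNA genes. Missense changes were 38 and 46 (46.3% and 47.9%) and synonymous ones 18 and 21 (21.95% and 21.9%). Stop gains numbered 3 (3.66%, 0.761 to 10.3) and 4 (4.17%, 1.15 to 10.3), against shares of 0.990% to 2.63% and 1.33% to 2.58% in the other libraries, all below the Thy values but inside the intervals. The control region held 1 and 0, where a count of 0 of 96 gives an exact upper bound of 3.77%.

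The highest transitions were shared with the other subsets of the same number. Of the Thy transitions, 27 of 82 and 29 of 96 were counted in all 7 libraries of their number. At these, the ratio of Thy to the mean of the others had a median of 1.01 in replicate 1 (0.745 to 2.33) and 0.830 in replicate 2 (0.600 to 1.24). Thy lay inside the range of the other 6 at 19 of 27 and 20 of 29, above all of them at 4 and 1, and below all at 4 and 8. Correlations were taken on arcsine square-root fractions over the 758 transitions counted in at least 1 of the 12 comparison libraries. That of Thy with each other subset was 0.621 (CD24_CD29) to 0.883 (CD105) in replicate 1 and 0.485 (CD24_CD29) to 0.891 (6C3) in replicate 2. The order was not particular to Thy. Among the other 6 themselves, CD24_CD29 had the lowest mean correlation (0.641 and 0.453), and CD105 (0.855) and 6C3 (0.774) the highest. Between Thy and Thy_6C3, the subset that shares the Thy marker, the correlation was 0.816 and 0.705. Across numbers, the Thy libraries correlated with each other at 0.147. With the other subsets of the opposite number the mean was 0.127 for Thy replicate 1 and 0.117 for Thy replicate 2. These values describe libraries whose alleles share position and coverage.

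In Thy replicate 1 the highest transition was C10658T (ND4 L164L, in complex I), at 16.02% (95% interval 15.6 to 16.5). The others of its number ran from 15.97% to 21.7% with a median of 18.8%, so Thy was near the low end. G3079A (ND1 S110N, in complex I) was at 15.6%, below all the others (16.2% to 20.4%, median 16.9%). C7953T lies where ATP8 and ATP6, subunits of ATP synthase, overlap (S63L in ATP8, F9F in ATP6), and was at 12.8%, against 7.60% to 14.1%. C7166T (H52Y in COX2, a complex IV subunit) was at 11.0% and C4493T (L194F in ND2, complex I) at 6.23%, each inside the range of the others. C4093T (F60F in ND2) was at 5.34%, against 5.21% to 8.21%.

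Among transitions high in every subset, C6918T parted Thy replicate 1 most clearly from the others. It lies in TrnS1, a serine transfer RNA gene (6870 to 6938), and was at 4.13% (3.92 to 4.35) in Thy replicate 1. The 6 others had 1.20% to 2.31% with a median of 1.86%, and Thy was 2.33 times their mean of 1.78% ± 0.490 (SD, n = 6). This 1 library thus lay above all 6, as it did at 4 of the 27 transitions counted in all 7 libraries of its number. In replicate 2 the Thy library had 0.291%, inside the range of 0.0114% to 0.509%. Neither edgeR's quasi-likelihood test (adjusted p = 0.674) nor the fit with the replicate block (adjusted p = 0.148) called it.

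In Thy replicate 2 the highest transition was C11959T (ND5 S73L, in complex I), at 21.0% (20.4 to 21.5), inside the 18.4% to 24.9% of the others. C1051T, in the valine transfer RNA gene TrnV, was at 15.8% (others 9.80% to 17.9%). C14024T (ND6 C16Y, in complex I) was at 8.92% (others 7.27% to 10.5%). C609T in mt-Rnr1, the small ribosomal RNA gene, was at 7.89% (7.43 to 8.36) and above all the others, which ran from 4.89% to 7.29%. C3085T (S112L in ND1) was at 7.84%, inside the range of the others. C7166T, at 5.53%, and C2974T (P75L in ND1), at 3.09%, were below all 6 (6.02% to 7.92% and 4.08% to 5.01%). C7166T was thus above the mean of the others in Thy replicate 1 and below all of them in Thy replicate 2.

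**Figure D4:**
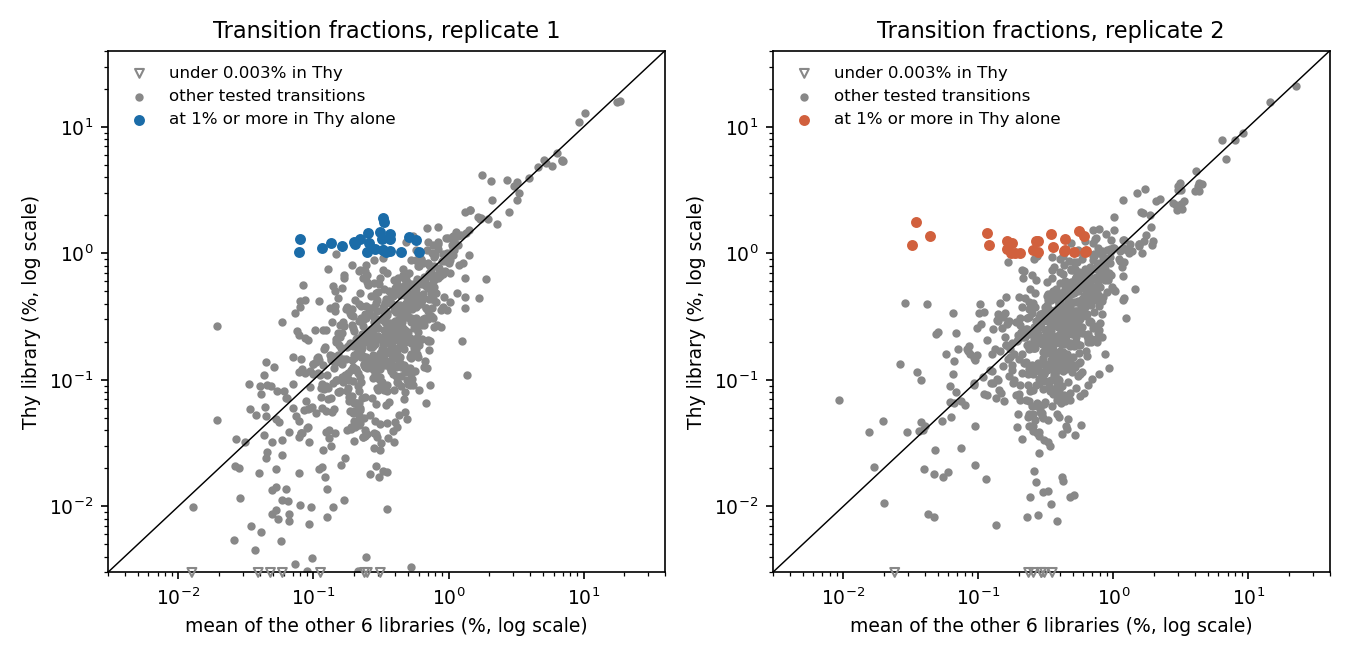
Fraction of each of the 801 tested transitions in the Thy library against the mean of the remaining 6 libraries of that replicate number (both in %, log scales); the line marks equal values, coloured points are transitions at 1% or more in Thy alone, and open triangles stand for fractions under 0.003%. The highest transitions lie along the line, and 26 and 25 coloured points lie above it.

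Transitions counted in Thy and in none of the other 6 libraries of the number were 26 in replicate 1 and 25 in replicate 2, rank 3 and rank 4 of 7. The other libraries had 1 to 130 and 6 to 197, and the mean difference of -24.25 did not pass (exact permutation p = 0.735, two-sided, adjusted p = 0.878). These 51 alleles were chosen for being high in Thy, so their values there are a description. In replicate 1 they ran from 1.02% to 1.91% with a median of 1.21%, and in replicate 2 from 1.003% to 1.76% with a median of 1.16%. The other 6 libraries were all under 0.5% at 11 of 26 and 13 of 25.

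The highest of them in Thy replicate 1 was T4773C (L287P in ND2), at 1.91% (1.73 to 2.11), where the others had 0.145% to 0.739%. In replicate 2, however, all 7 libraries had 1.002% to 2.90% and Thy had 1.41%. C13653T was at 1.77% (1.61 to 1.94), against 0.149% to 0.557%. It turns a glycine codon of the complex I gene ND6 into a stop of the vertebrate mitochondrial code (G140*). C9881T (P2L in ND4L, complex I) was at 1.49%, G5222A in TrnC, the cysteine transfer RNA gene, at 1.45%, and T3549C (S267P in ND1) at 1.43%. The highest other library reached 0.672%, 0.451% and 0.580% at these sites.

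In Thy replicate 2 the highest was C15266T (D374D in CYTB), at 1.76% (1.62 to 1.90), where the others ran from 0 to 0.110% with a median of 0.0221%. C13367T (L542L in ND5) was at 1.50%, against 0.0894% to 0.892%, and C8062T, a stop in ATP6 (Q46*), at 1.45% (1.30 to 1.62), against 0.00958% to 0.263%. C3455T (N235N in ND1) was at 1.43% and A3229G (Y160C in ND1) at 1.38%, and both were also highest of 7 in Thy replicate 1, at 0.891% and 0.551%.

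Whether such alleles recur in the Thy library of the other number was read from values that the choice had not used. Of the 26 alleles of replicate 1, 1 was highest of 7 in Thy replicate 2, where Thy was highest at 17.5% of all transitions. Of the 25 of replicate 2, 3 were highest in Thy replicate 1, where the background was 11.2%. Their mean fraction in the other Thy library was 0.368% and 0.299%, inside the range of the other subsets there (0.297% to 0.434% and 0.198% to 0.392%).

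Across all alleles, edgeR's quasi-likelihood test called 0 of 3475 (0.0% called) for Thy against the mean of the other 6 subsets, and 0 of the 801 transitions. Its lowest adjusted p was 0.130, and 1327 alleles, 25 of them transitions, had an unadjusted p under 0.05. Replicate numbers pair the libraries, and with the number as a block edgeR called 3 alleles (0.0863%), all higher in Thy, and again 0 transitions. DESeq2 called 2306 alleles (66.4%), 44 of them transitions (5.49%), and a quasi-binomial model called 0. Only 1081 of the 3475 alleles reached 1% in 1 of the 12 comparison libraries, and the rest were tested because they were high in a Thy library, so the counts say nothing of alleles at large. On those 1081, edgeR called 0 (0.0%), with 15 at an unadjusted p under 0.05. Without Thy replicate 1, edgeR called 2386 alleles, 17 of them transitions, and without Thy replicate 2 it called 1, T14637A.

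The 3 alleles called with the block were T5201G and A5202C in TrnC (5192 to 5257) and A5277C in TrnY (5260 to 5326). TrnC and TrnY encode the cysteine and tyrosine transfer RNAs and lie side by side, next to the origin of light-strand replication. T5201G was at 0.910% (0.802 to 1.03) in Thy replicate 1 and 1.45% (1.29 to 1.64) in Thy replicate 2. The others had 0.0169% to 0.0528% (median 0.0414%) and 0.0336% to 0.173% (median 0.0751%), so Thy stood above all of them in both numbers. Its log2 difference in edgeR was 4.41 ± 0.75 (SE), with an adjusted p of 0.130 without and 0.0326 with the block. This allele, like the other 2 called, entered the test only because it was high in Thy, as set out below. Of all 10310 A>C and T>G changes, 19.7% were above all 6 others in both numbers in Thy.

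A5202C, the next base, was the highest A>C or T>G change of Thy replicate 2 outside the control region. It was at 3.07% (2.87 to 3.29) in Thy replicate 1, against 0.0799% to 0.130% (median 0.101%), and at 3.46% (3.20 to 3.74) in Thy replicate 2, against 0.0590% to 0.940% (median 0.226%). CD29 gave the 0.940%, so the comparison libraries of replicate 2 came closer to Thy than those of replicate 1 at this base. With edgeR the adjusted p was 0.130 without and 0.0326 with the block.

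A5277C was at 2.60% (2.40 to 2.80) in Thy replicate 1, where the others ran from 0 (CD24_CD29) to 0.0255%, and at 0.327% (0.247 to 0.426) in Thy replicate 2, against 0.0137% to 0.0638%. In replicate 2 its fraction was below the median of all A>C and T>G changes of that library. Its neighbour A5278C was at 4.04% (3.80 to 4.29) in Thy replicate 1 and 0.778% (0.651 to 0.923) in Thy replicate 2, against 0.00966% to 0.0733% and 0.0342% to 0.228%. With edgeR the adjusted p was 0.130 for both without the block, and with it 0.0326 for A5277C and 0.104 for A5278C. Both TrnY sites were higher in Thy replicate 1 than in replicate 2, whereas both TrnC sites were higher in replicate 2.

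All 3 reached the 1% line only in Thy libraries, so their tests are of alleles chosen for being high there and are no independent evidence. The calls differed between fits. Without the block, DESeq2 (adjusted p = 3.51e-08 for T5201G, 1.93e-05 for A5202C and 8.82e-13 for A5277C) and edgeR with coverage as offset called all 3, while edgeR's main design and the quasi-binomial model (adjusted p = 0.0535 for each) called none of the 3. With the block in edgeR, leaving out 6C3 replicate 1, CD105 replicate 1, 6C3 replicate 2 or CD105 replicate 2 left 0 called, and without CD24_CD29 replicate 2 there were 4, A5278C added. Without Thy replicate 2 the calls with the block were A5277C (edgeR adjusted p = 0.0437) and T14637A, while T5201G had an adjusted p of 0.371 and A5202C of 0.803.

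The TrnC and TrnY sites also set the level of their neighbourhood in Thy replicate 1. The WANCY cluster, the 5 transfer RNA genes TrnW, TrnA, TrnN, TrnC and TrnY with the light-strand origin between them (4950 to 5326), had a mean A>C and T>G fraction of 14.2 per 10000 there, against 9.13 in the others, a ratio of 1.56. Without the 4 sites it was 9.97 against 9.20, a ratio of 1.08, and all transfer RNA genes without them gave 1.08 as well. In Thy replicate 2 the cluster stood at 69.7 per 10000, and at 68.3 without the 4 sites.

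Apart from T5201G and A5278C, 2 alleles were at 0.5% or more in both Thy libraries and under 0.25% in all 12 others. A10156C (N94H in ND4L) was at 0.690% (0.599 to 0.791) and 0.874% (0.747 to 1.02), against up to 0.125% and 0.108%. A6296T (W323C in COX1, a complex IV subunit) was at 0.737% (0.640 to 0.844) and 0.951% (0.817 to 1.10), against up to 0.212% and 0.222%. Neither reached 1%, so neither entered the main test. With no fraction filter, edgeR's adjusted p was 0.178 for each, and neither was called. Both were picked for being high in Thy, so these values are no independent evidence. Many A>C and T>G alleles are raised in Thy replicate 2, and A>C and T>G changes above all 6 others in both numbers made up 19.7% of 10310. A6296T is an A>T change, a kind at 2.07 times the mean of the others in Thy replicate 2. Of the 22288 remaining changes, the class that holds A>T, 16.1% were above all 6 in both numbers.

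**Figure D5:**
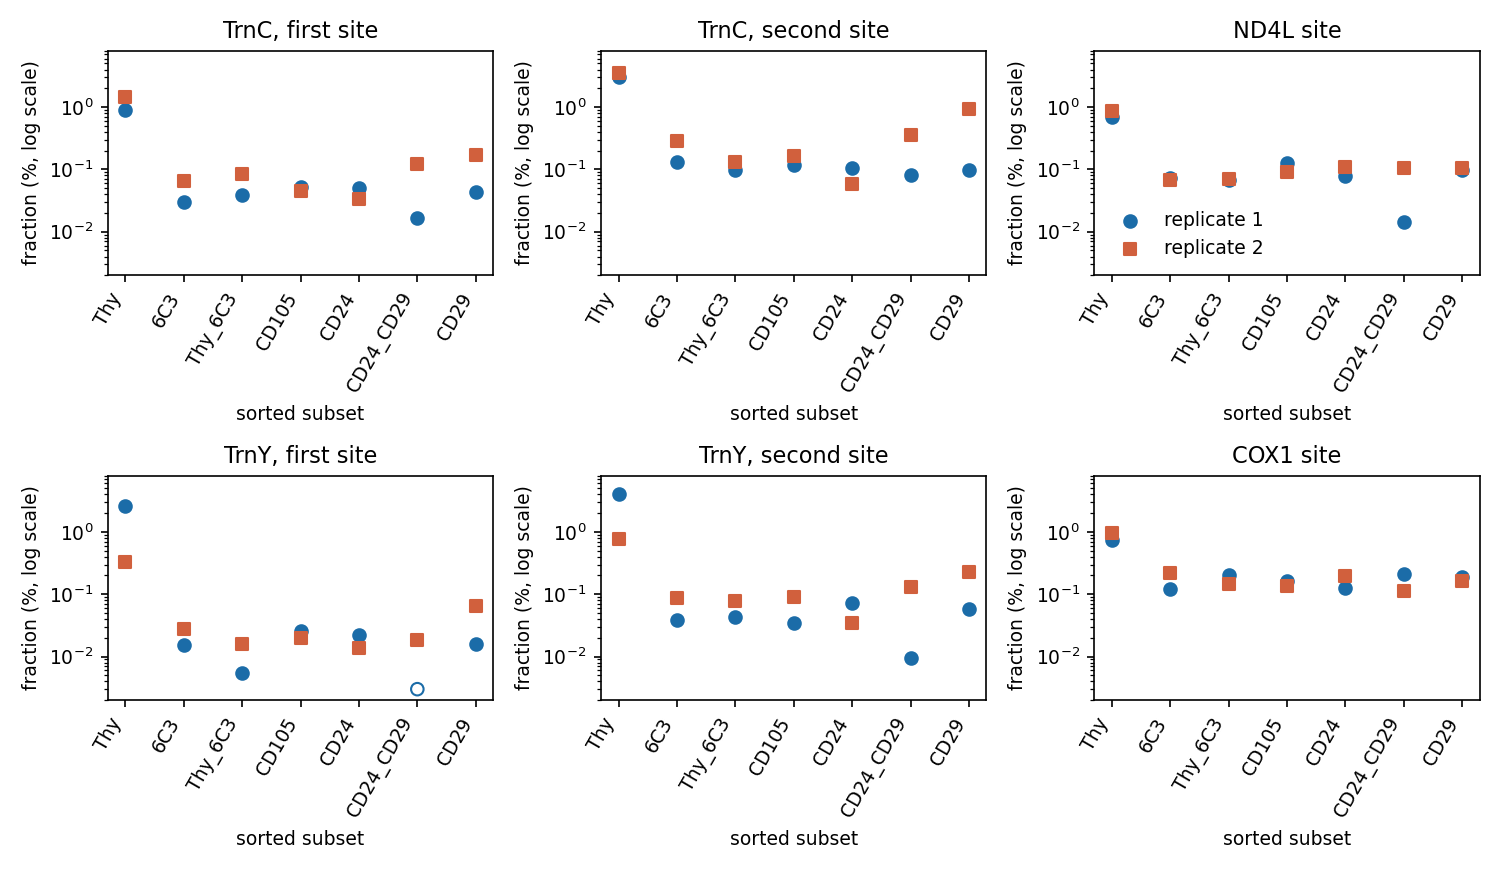
Fraction (%, log scale) at the 4 transfer RNA sites and the ND4L and COX1 sites in the 7 sorted subsets, with circles for replicate 1, squares for replicate 2 and an open circle for a count of 0. Both Thy libraries lie above all 12 others at the 6 sites, and at the TrnY sites replicate 1 (2.60% and 4.04%) lies above replicate 2 (0.327% and 0.778%).

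Over the 14 libraries, the alleles whose fractions were most like those of A5277C were A5278C (Pearson r = 0.998), C5847G (P174A in COX1, r = 0.996) and C2309T in mt-Rnr2, the large ribosomal RNA gene (r = 0.995). C5847G and C2309T were at 0.511% and 0.397% in Thy replicate 1 and at no more than 0.0849% in any other skeletal library, so Thy replicate 1 alone sets these values.

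Among the 758 transitions counted in at least 1 of the 12 comparison libraries, 2 were above all 6 others in both Thy libraries (0.264%) and 10 below all (1.32%). Over all 16299 transitions it was above all 6 in both numbers at 2.27% and below all at 0.822%, and over the 22288 remaining changes at 16.1% and 0.00897%. For the other subsets, with alleles chosen the same way, 0 to 10 were above and 1 to 58 below, so Thy was not set apart by either count. Because the alleles were chosen for being high in a comparison library, values below are favoured. G11217A (V351I in ND4) was at 2.19% and 0.231% in Thy, against 0.860% to 1.77% and 0.0134% to 0.0867%. C14149T (T2M in CYTB) was at 0.431% and 3.03%, against 0.0328% to 0.379% and 0.494% to 2.57%. T8331C (I135I in ATP6) was low, at 0.625% (0.547 to 0.711) in Thy replicate 1, where the 6 others were all counted at 1.38% to 2.46%, and at 0.216% in Thy replicate 2, just under the 0.224% of CD24.

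The transitions with the smallest p in edgeR were A1369G, C3925T, C4522T, C14974T and C15266T, each with an adjusted p of 0.130 without and 0.108 with the block. That adjustment ran over all 3475 alleles, most of them A>C or T>G changes. With transitions alone fitted, edgeR's adjusted p was 1.0 for each without and 0.997 with the block, and 8 and 17 transitions had an unadjusted p under 0.05. A1369G in mt-Rnr2 was at 0.133% and 0.115% in Thy, against 0.143% to 0.725% and 0.120% to 1.16%. C3925T (I4I in ND2) was at 0.130% and 0.0905%, against 0.160% to 1.04% and 0.169% to 1.25%, and C4522T (L203L in ND2) at 0.0457% and 0.115%, against 0.133% to 1.002% and 0.145% to 0.464%. C14974T (A277V in CYTB) was high, at 1.30% and 0.239%, against 0.00419% to 0.358% and 0.0182% to 0.132%. DESeq2 called all 5, with adjusted p from 0.000937 (C15266T) to 0.00811 (C4522T). C14974T and C15266T reached 1% only in a Thy library and so were chosen for being high there. For A1369G, C3925T and C4522T, edgeR's adjusted p on the alleles chosen from the 12 comparison libraries was 0.9996.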

How the data were processed

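The authors deposited whole-number counts, not normalized, for each mitochondrial position and library: coverage, and counts of the 3 non-reference bases. The submitters' processing notes name BWA 0.7.17, cutadapt 2.10, bcl2fastq 2.20 and the builds GRCm38 and mm10. The sources used here do not give quality filters, duplicate removal or the treatment of nuclear mitochondrial copies, and each can change a low fraction. Libraries were grouped by their titles. The 14 skeletal libraries were used, at mean coverages of 6569 to 77252, over 16299 positions and 48897 alleles. Genes came from the RefSeq annotation of GRCm38.p6, protein changes from the vertebrate mitochondrial code, and printed sequences from the reference bases in the deposited tables.

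Alleles at 1% or more with at least 5 counts in at least 1 of the 14 libraries were tested with edgeR 4.0.16 (R 4.3.3, quasi-likelihood). The fit took non-reference and reference counts as paired columns, with a term per library and per subset and the contrast of Thy with the mean of the other 6. The Benjamini-Hochberg adjustment ran over all 3475 alleles, at a threshold of 0.05. The 6 summary measures (coverage, 3 loads, 2 transition counts) had an exact permutation test within replicate numbers (49 choices, smallest p 0.0204). Replicate numbers pair the libraries: same-numbered libraries deviated together in all 21 pairs of subsets (r from 0.344 over the tested alleles). Values with the number as a block are therefore given where they change a call on all 14 libraries.

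Alternatives were the block, coverage as offset, TMM, DESeq2 1.42.0, a quasi-binomial model, other filters and thresholds, thinned depth, CD45 kept, and leaving out each library. The scripts were tested on simulated data. Other steps used Biopython 1.88, matplotlib 3.10.9, pandas 2.3.3, scipy 1.17.1, numpy 2.4.6 and Python 3.11.15.

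Members, allele classes, lists and tests were chosen with earlier results of these data known. The rule for named alleles took, per Thy library, the 5 highest transitions and A>C or T>G changes, and the 3 transitions farthest above and below the mean of the others. It added the 5 highest transitions counted in Thy alone, alleles called by edgeR with or without the block, those with the smallest p (5 transitions, 3 A>C or T>G changes), those at 0.5% or more in both Thy libraries and under 0.25% in the 12 others, and the 3 most like A5277C. Alleles outside the range of the other subsets in both numbers, T14637A and the block fits without single libraries were added after values were seen.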

Additional observations from a re-analysis of the deposited data

Results flagged for a closer look

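The CD45 libraries, left out of the comparison, also held counts at the 4 sites that were at 0.5% or more in both Thy libraries and under 0.25% in all 12 others, above what a count of 0 would allow. T5201G in TrnC was at 0.0505% in CD45 replicate 1 and 0.188% in CD45 replicate 2, the latter above the highest of the 12 comparison libraries (0.173%). A5278C in TrnY was at 0.0434% and 0.0531%. A6296T in COX1 was at 0.149% and 0.178%, and A10156C in ND4L at 0.103% and 0.0845%. All 8 values lay below both Thy libraries at the same site. Apart from T5201G in CD45 replicate 2, they lay inside the range of the 12 comparison libraries. At these sites CD45 was thus at the level of the comparison libraries, which also held counts there.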

How the results depend on the processing

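Of the 6 summary measures, 4 kept their direction under every alternative run. None of the 6 passed under any alternative, but the design leaves little room to pass. A measure alone at the smallest exact permutation p of 0.0204 has an adjusted p of 0.122. Without a Thy library no measure could pass. The transition load difference (-0.04 on the log2 scale) turned to 0.11 without Thy replicate 1 and to 0.01 without 6C3 replicate 1. The coverage difference (0.07) turned to -0.01 without CD24 replicate 1, -0.03 without CD24_CD29 replicate 1 and -0.0846 without CD24_CD29 replicate 2. Without each library in turn, the ranges were -0.0846 to 0.22 for coverage, -0.19 to 0.11 for transition load, 0.12 to 2.89 for A>C and T>G load, 0.14 to 1.12 for the remaining changes, -35.33 to -10.7 for the number of transitions and -39.0 to -9.5 for transitions in 1 library alone. Against 0 alleles in edgeR's main design, the replicate block gave 3, coverage as offset 2282, TMM library sizes 1 (A15000C), DESeq2 2306 and a filter at 0.5% 1 (A585C), and without each library in turn 0 to 2386, or 0 to 2410 with the block. For transitions, coverage as offset gave 34, DESeq2 44, and leaving out libraries 0 to 17, or 0 to 34 with the block, where every count above 0 was without Thy replicate 1. On all 14 libraries the block changed no other call. With single libraries left out, calls differed between the fits with and without it. The cause was not tested. With TMM the median log2 difference of all tested alleles was 0.07 in place of 1.34, and 1907 alleles were higher and 1568 lower in place of 2965 and 510. For transitions the median moved from -0.12 to -1.25 with TMM. Where a Thy library was left out, the lone Thy library was assumed to vary like the other subsets. Without Thy replicate 2 and with alleles chosen anew, edgeR called 0 of 1115 (29 at an unadjusted p under 0.05), and 0 with the block. Depth limits single fractions under about 0.0104% and 0.0153% in the Thy libraries.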

Other observations

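Some changes other than transitions were far higher in Thy replicate 1 than in the other libraries of its number, a group set up after their values were known and given with no test. At 0.5% or more and over 4 times every other library of replicate 1, Thy replicate 1 held 5 A>C or T>G changes, 10 A>T, 1 T>A, 4 C>G and 1 G>C, and 0 C>A or G>T. This was not particular to Thy: by the same rule CD24_CD29 replicate 1 held 7 A>C or T>G, 7 A>T, 7 T>A, 9 C>G, 3 G>C and 1 C>A or G>T, Thy_6C3 replicate 1 held 1 A>C or T>G, 5 A>T, 3 T>A and 1 C>A or G>T, and CD24 replicate 1 held 5 A>C or T>G, 2 T>A and 2 C>G. The highest of these outside TrnC and TrnY was T14637A, which turns a tryptophan codon of CYTB into a stop (W165*), at 1.07% (0.964 to 1.19), against 0.133% to 0.210%. In replicate 2 the Thy library was again highest at this site, at 0.339%, against 0.129% to 0.210%. G8988C (E128Q in COX3) was at 0.885% and 0.283%, against up to 0.0682% and 0.0537%. In Thy replicate 2, T>A changes as a kind stood at 2.55 and G>C changes at 3.61 times the mean of the others. Of the 22288 remaining changes, which include both kinds, 16.1% were above all 6 others in both numbers. A14931T (N263Y in CYTB) was at 0.958% in Thy replicate 1 and 0.310% in Thy replicate 2, where CD24_CD29 had 0.476%. C14813G, a stop in CYTB (Y223*), was at 0.716% in Thy replicate 1 and up to 0.0808% in the others, and in replicate 2 Thy had 0.121%, inside the range of the others.

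Below the 1% line, 63 transitions were at 0.3% or more in Thy replicate 1 and over 4 times every other library of its number, and 13 of them (20.6%) were highest of 7 in Thy replicate 2, where Thy was highest at 17.5% of all transitions. That share is near the background. By the same rule Thy_6C3 replicate 1 had 22.7% (17 of 75), against a background of 12.7% for Thy_6C3 in replicate 2. CD29 replicate 2 had 22.9% (22 of 96), against 13.7% for CD29 in replicate 1. For 6C3 replicate 2 it was 33.3% (2 of 6), against 32.9% for 6C3 in replicate 1. Some of the 13 were barely above the others in replicate 2, such as G1929A at 0.1345% against up to 0.129% and C12883T at 0.0685% against up to 0.0576%. Wider gaps, picked after their values were seen, were those of C12769T (S343F in ND5) at 0.577% and 0.0909%, against up to 0.0489% and 0.0108%, G11688A in TrnL2, a leucine transfer RNA gene, at 0.630% and 0.196%, against up to 0.0910% and 0.0311%, and G12304A, a stop in ND5 (W188*), at 0.403% and 0.107%, against up to 0.0852% and 0.0106%. Of the 62 chosen the same way in Thy replicate 2, 5 (8.06%) were highest in Thy replicate 1, where the background was 11.2%. CD45 replicates 1 and 2 had 0.0158% and 0 (C12769T), 0.0194% and 0.147% (G11688A), and 0.0216% and 0.0112% (G12304A).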
